A study of Venturia canescens with 6 samples.

Results

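The 150 most evenly expressed gene models in heads of the parasitoid wasp Venturia canescens are described here. They were chosen by the coefficient of variation (CV, the SD divided by the mean) of their read level over all 6 libraries, where the level is CPM, the read count of a model scaled to a library of 1000000 counts. The choice was made among 2339 models with a mean of at least 80 and under 1000 CPM and a number outside 2001 to 5500 and below 20001, out of 22333 models in the table. Each library was made from a pool of 30 heads of adult females that were decapitated and frozen at emergence, with 3 pools per population, 1 population being sexual and the other asexual. No transgene, drug or other treatment is given in the labels, all 6 pools share sex, organ and age, and each reproductive mode is represented by 1 population, so that reproductive mode and other differences between these populations cannot be told apart. The values that chose the models are the CVs over both populations together, so their low spread and small differences between populations follow from the choice and are given as descriptions, without a test.

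V. canescens lays its eggs in caterpillars of moths. As in other haplodiploid wasps, unfertilised eggs of sexual females develop into sons, whereas asexual females produce daughters without mating. In animals in general, transcripts that vary little between samples include many that serve the basic upkeep of every cell, such as protein synthesis and degradation, and such transcripts are used as references when other genes are measured. The models here carry numbers only, and 0 of the 22333 identifiers matched a RefSeq gene table of the species, so no model has a gene name, a sequence or a known role here, and the label of a head could not be checked against marker genes. In pooled heads, fewer cells of a type and less RNA per cell cannot be told apart, and an even level says nothing of how a transcript is spread over cells.

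Library totals ranged from 9265064 to 13117716 counts, so that 1 count corresponded to 0.0762 to 0.108 CPM. The most abundant single model took 3.71% to 5.50% of a library. Over all models with at least 10 counts in a pair of libraries of 1 population, the chi-square per degree of freedom was 8.45 to 22, whereas over the 150 steady models it was 1.76 to 2.5. Pools of a population therefore differed by more than counting in every pair, and all 6 were kept as separate samples.

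The 150 steady models spanned nearly the whole level range allowed. Their mean level ran from 80.3 to 888 CPM with a median of 136 CPM, against a median of 150 CPM for all 2339 models within the limits. Each of them had between 739 and 11556 counts in a library. Of the 150 models, 97 lay between 80 and 160 CPM, 38 between 160 and 320 CPM and 15 between 320 and 1000 CPM, which is 7.64%, 5.58% and 3.86% of the models within the limits in these bands. CPM is a share of reads that also depends on transcript length, and no lengths are known here, so an order of models by CPM is not an order of transcript number.

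The CV of the steady models ran from 0.526% to 4.38% with a median of 3.60%, and the median over all 2339 models within the limits was 10.2%. The highest and the lowest library of a steady model differed by a factor of 1.01 to 1.14, with a median of 1.1. By comparison, the median factor over all models within the limits was 1.3. Across the 2339 models, level and CV were nearly unrelated (Spearman's rho 0.089, Pearson's r of logarithms 0.097, given as a description of models that share the same 6 libraries).

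**Figure D1:**
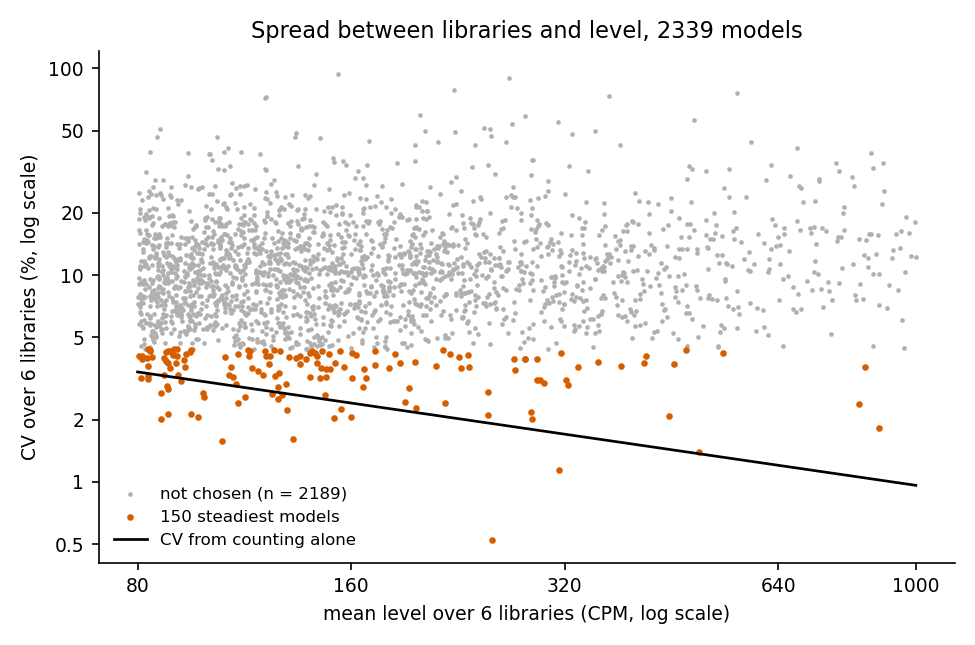
The CV over 6 libraries (percent, log scale) is plotted against the mean level (CPM, log scale) for 2339 gene models. Orange points are the 150 chosen models, grey points the 2189 others, and the black line is the CV that read counting alone gives at these library totals; orange points lie from 0.526% to 4.38%, on both sides of the line at low levels and mostly above it at high levels.

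Gene model g15820 was the steadiest of all. It stood at 253.6, 253.6 and 252.3 CPM in sexual replicates 1 to 3 and at 252.2, 255.0 and 251.2 CPM in asexual replicates 1 to 3. Its libraries spanned a factor of 1.01, and no population stood above the other. Its CV of 0.526% was lower than the 1.91% that read counting alone gives at its counts, which were 2337 to 3310 in a library. Picking the lowest of 2339 CVs favours values below the counting error.

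Next in the band from 160 to 320 CPM was g11150, with 314.0, 315.3 and 311.3 CPM in sexual and 316.3, 317.9 and 308.2 CPM in asexual libraries. The populations overlapped, and its CV was 1.13%. Gene model g1556 had 291.8, 292.2 and 290.7 CPM in sexual libraries, a range of under 2 CPM, and 282.1, 292.7 and 279.5 CPM in asexual libraries. Here the sexual pools lay close together and the asexual pools were more spread, with CVs of 0.271% and 2.45%. Read counting alone gives 1.79% at its counts, which is above the sexual CV, and the difference in spread was not tested. Gene model g13215 had 254.2, 251.9 and 254.8 CPM in sexual and 247.2, 241.6 and 245.6 CPM in asexual libraries. All its asexual libraries lay below all its sexual libraries, and 84.5% of its small variation (CV 2.12%) lay between the populations.

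Between 80 and 160 CPM the lowest CVs belonged to g15442, g474, g8241 and g1119. Gene model g15442 had 103.9, 107.3 and 106.1 CPM in sexual and 106.1, 103.3 and 103.6 CPM in asexual libraries, a CV of 1.58%. Gene model g474 had 132.6, 134.6 and 131.3 CPM in sexual and 133.6, 133.4 and 128.7 CPM in asexual libraries, a CV of 1.60%. In both, the libraries of the populations overlapped. The CVs of g8241 and g1119 were 2.01% and 2.03%, with levels of 84.2 to 88.9 CPM and 148.3 to 156.5 CPM over the 6 libraries. All 4 CVs were below the counting CV at these levels, which was 2.47% to 3.27%.

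Between 320 and 1000 CPM counting error is smaller, and spread between pools is easier to see. Gene model g11320 had 500.1, 496.8 and 489.8 CPM in sexual and 482.7, 500.8 and 495.7 CPM in asexual libraries. Its CV of 1.40% was close to its counting CV of 1.37%. The model with the highest level, g314, had 892.3, 887.7 and 880.9 CPM in sexual and 916.2, 867.9 and 881.9 CPM in asexual libraries. Its highest and its lowest library were both asexual, and its CV of 1.82% was 1.79 times the counting CV. The CVs of g16547 (449 CPM) and g8363 (831 CPM) were 2.08% and 2.39%, or 1.45 and 2.26 times the counting CV.

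**Figure D2:**
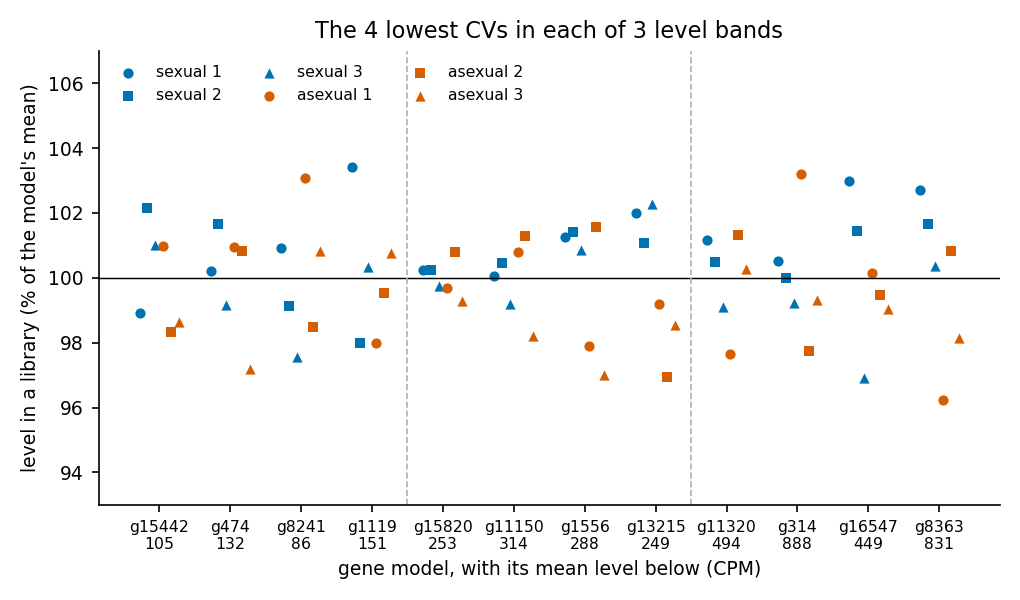
The level of each library is shown as a percentage of the model's mean over 6 libraries, for the 4 models with the lowest CV in each of 3 level bands (80 to 160, 160 to 320 and 320 to 1000 CPM, separated by dashed lines; the mean in CPM is written below each name). Blue marks are sexual and orange marks asexual libraries, with 1 marker shape per replicate; the points of g15820 lie closest together, and for g13215 the 3 orange points lie below the 3 blue points.

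For much of the set the spread between pools stayed under a 95% limit for read counting. In most models it was still above the average that counting alone gives, which for a single model under the limit does not show spread beyond counting. The index of dispersion, the chi-square of the 6 counts around their expectation divided by its 5 degrees of freedom, had a median of 1.8 in the steady models and of 18.5 over all models within the limits, where counting alone gives about 1. A model was taken as within counting noise when its chi-square was below 11.1, the 95% limit. This held for 93 of the 150 steady models (62%), against 4.45% of the models within the limits and 28.6% of all 11700 tested models, whose median counting CV was 6.12%. Since the rule used the same 6 libraries, these shares describe the choice. A chi-square below the limit does not show that counting was the only source of spread. The index was under 1 in 29 steady models, among them g15820 (0.075), g15442 (0.28) and g8241 (0.37), which had the 3 lowest values. After the counting part was subtracted, the remaining CV had a median of 2.49% in the steady models and of 9.90% in the models within the limits.

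How much of the spread was counting depended on level. Of the steady models between 80 and 160 CPM, 79 of 97 were within counting noise, between 160 and 320 CPM 13 of 38, and between 320 and 1000 CPM 1 of 15. Among all models within the limits the share fell likewise, with 7.09%, 1.91% and 0.257% in these bands. The median counting CV in these bands was 2.89%, 2.03% and 1.43%, while the median CV of the steady models stayed at 3.72%, 3.54% and 3.60%. The median CV after subtraction of the counting part was 2.17%, 2.88% and 3.27%. The same CV limit thus admits models with less spread beyond counting at low levels than at high levels.

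The steady models with the highest index of dispersion were all of high level. At a given CV the index grows with the count, so under a common CV limit the highest values fall at high levels. Gene model g12337 had 880.0, 875.0 and 822.7 CPM in sexual and 835.1, 866.3 and 806.0 CPM in asexual libraries. Each population held both higher and lower pools, and its CV of 3.60% was 3.45 times the counting CV (index 12.2). Gene model g14564 had 541.0, 529.4 and 525.6 CPM in sexual and 519.5, 577.0 and 516.0 CPM in asexual libraries. Asexual replicate 2 stood above the other 5 libraries, which lay within 516 to 541 CPM, and the index was 9.99. Gene model g6489 had 481.7, 498.8 and 482.7 CPM in sexual and 480.4, 442.3 and 456.6 CPM in asexual libraries, with all asexual libraries below the sexual ones and an index of 9.56.

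The limit of the choice fell in a continuous run of values. The last 2 models inside it, g10271 and g6884, both had a CV of 4.38%, and the first 2 outside it, g15254 and g17908, had 4.39%. Gene model g10271 ran from 86.2 to 96.7 CPM and g15254 from 128.4 to 146.3 CPM. Beyond the level limits, 4 of 103 models at 1000 CPM or more and 106 of 1895 models from 40 to under 80 CPM also had a CV of at most 4.38%. Of the 33 models of the same level range whose numbers the rule left out, none reached it. Their lowest CV was 4.91% and their median CV 21.4%.

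Libraries differed little in how they sat relative to the steady models. The 150 models together held 2.73%, 2.71% and 2.72% of the counts in sexual replicates 1 to 3 and 2.71%, 2.73% and 2.67% in asexual replicates 1 to 3. The sexual mean was 2.72% ± 0.012 and the asexual mean 2.71% ± 0.029 (SD, n = 3), and the libraries of the populations overlapped. Asexual replicate 3 was the lowest library for 37 of the models and the highest for 6, whereas each of the other libraries was highest for 20 to 34 and lowest for 16 to 32. The median log2 deviation from a model's mean was -0.016 in asexual replicate 3 and -0.018 there over all models within the limits. The most abundant model took 5.50% of the counts of that library, more than in any other, and its part in the deviation was not tested. With TMM scaling, which corrects library sizes by the bulk of the models, asexual replicate 3 was the highest library for 24 and the lowest for 15 of the 150 models. Sexual replicate 2 was then highest for 42, against 20 without that scaling.

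**Figure D3:**
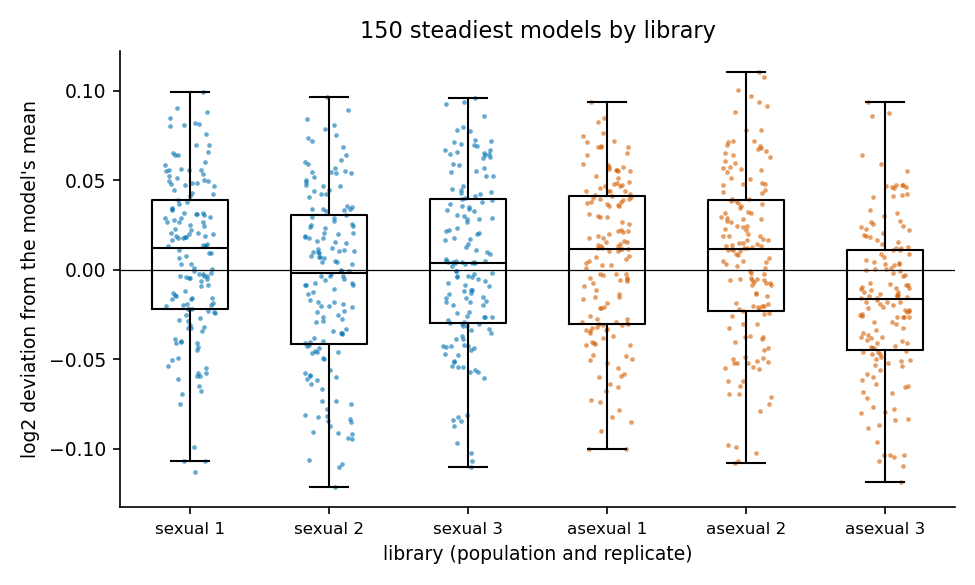
Each point is 1 of the 150 steady models, placed by its log2 deviation in a library from its own mean over 6 libraries (CPM on library totals; boxes give the median and quartiles, whiskers reach the farthest point within 1.5 times the quartile range). All points lie between -0.121 and 0.111, and the median is lowest, at -0.016, in asexual replicate 3.

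Used as the scaling reference for the whole table, the steady models gave library factors of 0.986 to 1.01, and TMM gave 0.984 to 1.01. The models were chosen for an even share of the library totals, so factors this close together follow from the choice. Their closeness to TMM is therefore no check of the models as a reference. The largest gap was in sexual replicate 2, where the steady models gave 0.999, TMM 0.987 and the DESeq2 size factors 0.980. Scaled on the steady models, edgeR called 1520 of the 11700 tested models, and 1504 with TMM. In that fit the median log2 fold change was 0.0003 over all tested models and 0.0058 over the steady ones. Single steady models deviated from their own mean by -0.121 to 0.111 on the log2 scale in a library.

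The comparison of the populations asks how large a difference these data still allow for models that look constant. No steady model was called by edgeR's quasi-likelihood test at an adjusted p under 0.05, 0 had an unadjusted p under 0.05, and DESeq2 and limma-voom also called 0. Among all 11700 tested models 12.9% were called, and among the 2339 models within the limits also 12.9% (28.4% and 29.1% at an unadjusted p under 0.05). Over all models with an adjusted p, DESeq2 called 10.4% and limma-voom 12.9%. The choice by low CV over both populations removes models that differ between them, so nothing is read from the 0. The log2 fold changes of asexual over sexual libraries ran from -0.094 to 0.10, a fold of 0.937 to 1.07, with a median of 0.0038. They were above 0 in 80 and below 0 in 70 models. With other scaling factors 72 to 82 were above 0, so the split follows the scaling. The median absolute log2 fold change was 0.033, against 0.14 for the models within the limits.

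The 95% intervals of these fold changes were wider than the changes themselves. Their half-width on the log2 scale was 0.16 to 0.21 with a median of 0.18, against a median of 0.22 for all models within the limits. The interval lay inside 1.2-fold in both directions for 144 of the 150 steady models (96%). The share was 9.03% of all tested models and 18.5% of the models within the limits. It lay inside 1.1-fold for 0 models and inside 1.5-fold for all 150, against 59.6% of all tested models for 1.5-fold (83.7% within the limits). The rule kept fold changes small, so these shares follow from the choice. Intervals around values picked to be small need not keep their 95% coverage, so no change is excluded by them. edgeR draws the error of each model towards that of models of like level. Its separate estimate of the biological coefficient of variation was 0.075 to 0.098 in the steady models, with a median of 0.083. The median was 0.097 over the models within the limits. The intervals use the error of the quasi-likelihood fit and not this estimate. For g15820 the log2 fold change was 0.0039 ± 0.082 (SE), with an interval from 0.885 to 1.14-fold. The smallest change called among the models within the limits was 0.27 on the log2 scale, in g8155. None of the 302 called models there changed by less than the largest change of a steady model. That gap follows from the CV limit of the choice and from the size of change that the test can call. Leaving out 1 library widened the intervals, and the count inside 1.2-fold was then 66 to 124. The lowest count came when asexual replicate 2 was dropped. Dropping sexual replicate 3 gave 84, dropping asexual replicate 3 gave 88 and dropping asexual replicate 1 gave 93.

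**Figure D4:**
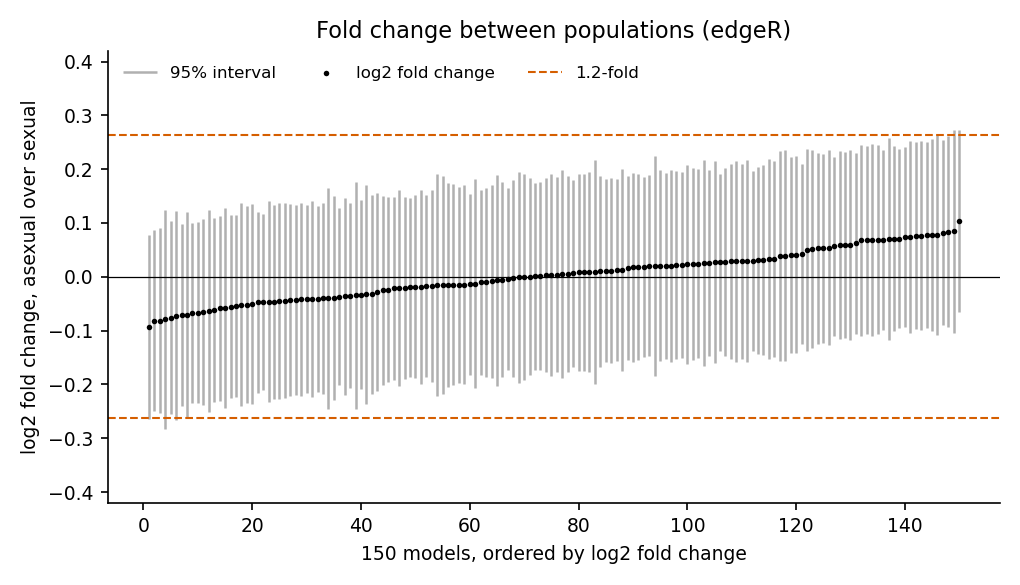
The log2 fold change of asexual over sexual libraries (black points) with its 95% interval from edgeR (grey bars) is shown for the 150 steady models, ordered by fold change. Points run from -0.094 to 0.10, every bar crosses 0, and 6 bars reach past the dashed lines at 1.2-fold.

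The steady models with the widest differences between populations still differed by little. Gene model g14742 had 124.6, 128.4 and 126.2 CPM in sexual and 137.4, 136.0 and 132.4 CPM in asexual libraries. All asexual libraries lay above all sexual ones, and the log2 fold change was 0.10 ± 0.076 (SE), with an interval from 0.956 to 1.21-fold. Gene model g17256 had 151.2, 148.5 and 152.2 CPM in sexual and 137.2, 145.4 and 139.1 CPM in asexual libraries. Its asexual libraries all lay below its sexual libraries, and the log2 fold change was -0.094 ± 0.077 (SE), with an interval from 0.833 to 1.05-fold.

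On the higher side, g5585 had 270.0 to 278.3 CPM in sexual and 277.7 to 299.0 CPM in asexual libraries, and g7917 had 186.0 to 197.4 and 196.8 to 205.1 CPM. Both pairs of ranges overlapped, and both log2 fold changes were 0.084. On the lower side, g6294 had 89.4 to 90.1 CPM in sexual and 81.9 to 87.7 CPM in asexual libraries, and g9756 had 84.1 to 88.6 and 79.8 to 83.4 CPM. Neither pair of ranges overlapped, and the log2 fold changes were -0.082 and -0.081. Over the whole set, 14 models showed no overlap between the sexual and the asexual libraries, of which 3 were higher and 11 lower in asexual females. Non-overlap held for 32.3% of all tested models and 33.8% of the models within the limits. With TMM scaling the count was 18, with 9 higher and 9 lower, so the direction of this split rests on the scaling.

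The share of a model's variation that lay between the populations had a median of 15.4% in the steady models and of 34.9% over the models within the limits. It ran from under 0.001% to 85.2%. The spread within populations was alike on both sides, with a median CV of 3.03% over the sexual and 3.04% over the asexual pools, and the sexual CV was the larger in 76 of 150 models. Over all models within the limits these medians were 7.95% and 7.01%, and the sexual CV was the larger in 58.8% of them. These differences between populations in spread were not tested.

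To see whether an even level holds in pools that the choice did not use, the same rule was applied to the 3 libraries of 1 population and the CV was read in the other. The 150 models chosen on sexual libraries had CVs of at most 2.28% there, and a median CV of 5.10% over the asexual libraries (quartiles 3.54% and 7.34%). All 2343 models within the limits had a median of 7.03% in the asexual libraries. In the reverse direction, models chosen on asexual libraries had CVs of at most 1.90% there and a median of 6.05% over the sexual libraries (quartiles 3.68% and 8.43%), against 7.83% for all 2331 models within the limits. The median counting CV was 2.53% and 2.45%. In both directions the chosen models had the lower median in the unused population. It was higher than their median CV in the population that chose them, which was 1.53% in sexual and 1.37% in asexual libraries. Such a rise follows from picking the lowest CVs over 3 libraries, so nothing is read from it. Their median level of 157 and 152 CPM was close to that of all models within the limits, 149 and 150 CPM. A CV over 10% in the unused population was found in 15 of 150 (10%) and 24 of 150 models (16%), against 27.0% and 34.9% of all models within the limits. Across the 2339 models the CVs of the 2 populations were related with a Spearman's rho of 0.386, as a description of models that share libraries and level.

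**Figure D5:**
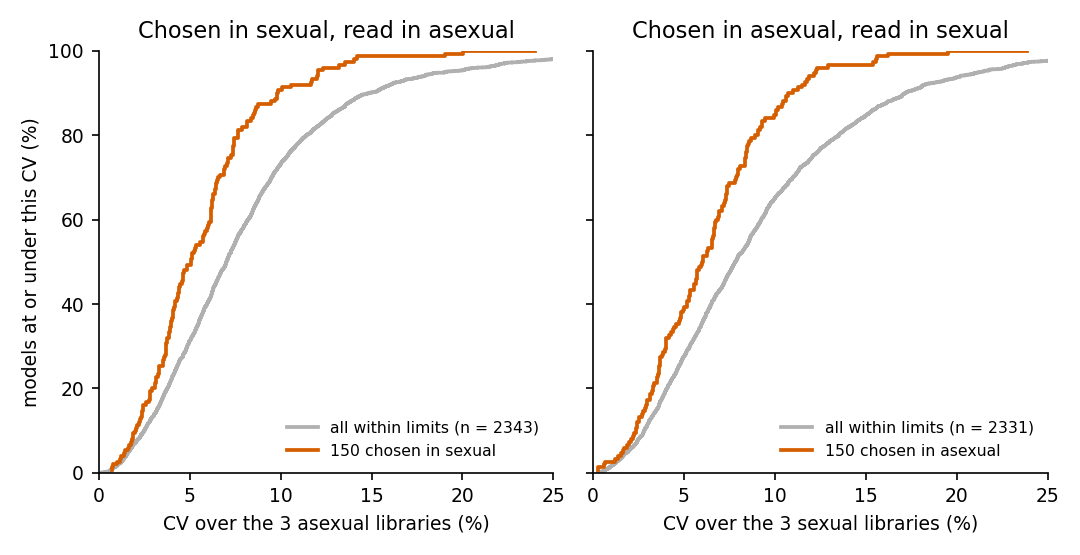
Cumulative percentage of models (vertical axis) at or under a given CV in the population that was not used for the choice (horizontal axis, percent, shown up to 25%). Orange lines are the 150 models with the lowest CV in the other population and grey lines all models within the same limits; the orange lines lie to the left, with medians of 5.10% against 7.03% in asexual and 6.05% against 7.83% in sexual libraries.

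Models chosen for evenness within 1 population were not chosen on their difference between populations. Their low spread in the choosing libraries does enter the error of the test, however, so the calls and p-values are descriptions. Of the models chosen on sexual libraries alone, 21 of 150 (14%) were called by edgeR between populations, where 12.5% of the models within the limits were called. Of those chosen on asexual libraries, 15 of 150 (10%) were called, where 13% were. The median absolute log2 fold change was 0.12 and 0.10 in the chosen models, and 0.14 in all models within either set of limits. The largest changes were found in g6404, with 242.7, 247.9 and 248.4 CPM in sexual and 477.1, 442.0 and 411.0 CPM in asexual libraries, and in g5900, with 58.5, 53.8 and 64.0 CPM in sexual and 107.6, 105.6 and 104.1 CPM in asexual libraries. Their log2 fold changes were 0.85 ± 0.093 and 0.85 ± 0.084 (SE), with edgeR adjusted p-values of 0.000184 and 9.79e-05, and both stayed called in all 15 alternative fits. These 2 models were singled out after their values were seen.

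Few models were among the steadiest in both populations taken alone. The lists chosen on sexual and on asexual libraries shared 11 models, 7.33% of each list. A list of 150 makes up 6.41% of the 2339 models within the limits. The overlap was near that share, so nothing is read from it. Of the 11, 8 belonged to the 150 steady models, namely g5939, g11131, g11150, g12735, g13215, g15442, g15820 and g17530. Of the 150 steady models, 45 (30%) were in the sexual list and 36 (24%) in the asexual list, and 77 were in neither. The steady models were chosen on the same libraries as these lists, so these 2 shares are descriptions.

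The other 3 of the 11, given here after their values were seen, were even within each population at different levels. They were chosen on the spread within populations that also enters the error of the test, so their p-values are descriptions. Gene model g16717 had 187.6, 185.1 and 190.9 CPM in sexual and 225.0, 228.0 and 225.5 CPM in asexual libraries. The populations did not overlap, 99% of the variation lay between them, and the log2 fold change was 0.27 ± 0.080 (SE; edgeR adjusted p = 0.0478). This call was kept in 4 of 15 alternative fits, where adjusted p-values ran from 0.0345 to 0.281. Among the fits that ended it were those without any 1 of the 6 libraries and that with the replicate number as a block (adjusted p = 0.106). Gene model g18143 had 272.2, 278.6 and 274.1 CPM in sexual and 239.5, 235.3 and 235.5 CPM in asexual libraries, and g7126 had 161.2, 155.9 and 162.5 against 143.0, 139.4 and 142.6 CPM. Neither pair of groups overlapped, but their edgeR adjusted p-values were 0.126 and 0.186, and both missed the threshold in all 15 alternatives.

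A library that took no part in the choice gave a second check. When the rule was applied to 5 libraries, the sixth deviated from their mean by a median of 0.058 to 0.095 on the log2 scale in the 150 models chosen, against 0.10 to 0.14 in all models within the limits. The deviation was smallest for asexual replicate 3 and largest for sexual replicate 2. In the left-out library, 109 to 131 of the 150 models lay within 1.1-fold of the mean of the others, 72.7% to 87.3%, while 49.2% to 63.1% of all models within the limits did. The largest single deviation was 1.5-fold, in asexual replicate 1. The counting error of 1 library at these levels is 0.034 to 0.039 on the log2 scale (SD). Between 95 and 112 of the models chosen on 5 libraries were among the 150 steady models. The other 38 to 55 places went to models outside the list.

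The numbers of the steady models ran from g102 to g19145, and in blocks of 2500 numbers the steady models made up 4.09% to 7.77% of the models within the limits, where the whole set is 6.41%. No 2 of them had consecutive numbers or stood side by side in the table. The closest were 6 pairs within 5 numbers, among them g11150 with g11152 and g8363 with g8368. What the numbering follows is not stated.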

How the data were processed

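A single table, deposited by the authors, holds raw counts of reads for each gene model in 6 columns, 1 per library, without normalization. Per the labels' protocols, polyadenylated RNA was made into stranded TruSeq libraries, and per the submitters' processing notes Trimmomatic, HISAT2 and DESeq2 were used, in roles not given. Strand setting, counter, build and annotation were not given in the sources used here, so reads of overlapping or antisense models cannot be separated. All 6 columns were matched to samples by the source names.

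CPM was computed on column totals, and the CV with the SD over n - 1. The members, lists and tests were chosen with earlier results of these data known. Models named were the 4 lowest CVs in each of 3 level bands, the 3 largest fold changes in each direction, the 3 lowest and highest indices of dispersion, the 3 highest levels, and 2 models on either side of the CV limit; others are marked as chosen after their values were seen. Populations were compared with edgeR 4.0.16 (quasi-likelihood F test, TMM, filterByExpr, population as the only term; R 4.3.3) on all 11700 models that passed, all 150 members included, with Benjamini-Hochberg adjustment. Intervals are the log2 fold change plus or minus the t quantile times the SE, taken as the absolute log2 fold change over the root of F; the fit was tested on simulated data. The counting CV is the square root of the mean reciprocal count. Counting errors cover counting only, and the labels describe no molecular identifiers. The labels call the pools biological replicates. Same-numbered libraries did not deviate together (correlations -0.22, 0.0073 and 0.042), so no block was used. Alternatives were DESeq2 1.42.0, limma-voom (limma 3.58.1), other scalings, filters and choices, a replicate block and left-out libraries. The planned cell type markers were not used, since identifiers matched no gene.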

Additional observations from a re-analysis of the deposited data

How the results depend on the processing

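The count of steady models called between populations was 0 in all 15 alternative fits, in which 588 to 2058 models of the whole table were called. This 0 follows from the choice by low CV over the same libraries, so nothing is read from it. The number whose interval lay inside 1.2-fold was 144 and ran from 105 (replicate block) to 148 under other scalings, filters, limma-voom and the replicate block. It was 66 to 124 with 1 library left out, 12 without sexual replicate 3 and asexual replicate 1 together, and 0 for a limit of 1.1-fold. Fewer libraries widen each interval by construction. The number within counting noise was 93, and 91 to 124 in the alternatives. When the choice was repeated, 126 of the 150 models were kept with TMM or DESeq2 scaling, 146 with the SD of log2(CPM + 1), 140 with the excess over counting noise, 112 with the index of dispersion and 148 with an upper limit of 2000 CPM. It was 95 to 112 with 1 library left out, 87 with a lower limit of 40 CPM, which adds models, 45 on sexual and 36 on asexual libraries alone. With 1 library of the choosing population left out as well, 16 to 30 and 16 to 27 were kept. The CVs and deviations read in unused libraries kept within 1.5 times of the values given, and stayed under those of all models within the limits, in each scaling and with each library left out. The replicate numbers are not said to mark a batch, and the replicate block ended the call of g16717 (adjusted p = 0.106), a model outside the 150. Of 375 alternative fold changes of the 25 models named by rule, 361 moved by less than 1 SD between replicates, and 14, in 9 models, by more. Of these 14, 13 came with libraries left out and 1 from DESeq2. Depth limits the steady models below 160 CPM most, where the median counting CV is 2.89%.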

Other observations

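Some models were even in 1 population and variable in the other. They were singled out after their values were seen, and no test of the difference in spread was made. Gene model g11192 had 129.6, 130.5 and 129.7 CPM in sexual libraries and 224.9, 190.1 and 149.6 CPM in asexual libraries, with CVs of 0.391% and 20.04%. All its asexual pools lay above its sexual pools (log2 fold change 0.54 ± 0.13, SE, edgeR adjusted p = 0.0198). The low sexual spread that picked this model also enters the error of the test, so the p-value is a description. In the reverse direction, g1263 had 118.6, 188.8 and 141.9 CPM in sexual and 135.5, 132.8 and 132.8 CPM in asexual libraries, with CVs of 23.9% and 1.16%. Its asexual pools lay inside the range of the sexual pools. The low CVs of g11192 and g1263 were both under 2.94%, the median counting CV of models within the limits from 80 to 160 CPM. Picking the lowest CVs over 3 libraries favours such values. Gene model g14705 had 305.0, 313.9 and 301.6 CPM in sexual and 463.9, 322.7 and 304.6 CPM in asexual libraries, and asexual replicate 1 stood above the other 5 libraries.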
